A study of Mus musculus with 10 samples.

Results

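The genes described are 8 integrin chains and a pair of their ligands in invariant natural killer T (iNKT) cells of the mouse thymus: Itgae, Itgb7, Itga4, Itgal, Itgb1, Itgb2, Itgav, Itgb3, Icam1 and Icam2. They were chosen by name with earlier results of these data known, as 10 of the 18193 genes of the array's annotation. Every probe set that the annotation gives to 1 of them was read. That made 26 of 45037 probe sets, of which 17 were bright enough to be tested, and each of the 10 genes kept at least 1. Expression was measured on 10 Affymetrix arrays, a small number that limits precision throughout. The groups were Id3KO stage 1 cells (2 arrays), WT stage 1 cells (2 arrays), Id3KO stage 2 cells (3 arrays) and WT stage 2 cells (3 arrays). All mice were C57BL/6 and 6 weeks old. Id3KO mice lack Id3, which holds back the E protein family of transcription factors, and the labels do not give the allele, its cell type or the number of animals behind an array. Both stages were gated as Tet+CD24-NK1.1-, with stage 1 CD44- and stage 2 CD44+. They thus lack the mature surface marker NK1.1 and differ in CD44.

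An integrin is a pair of 1 alpha and 1 beta chain that holds a cell to matrix or to another cell, and neither chain reaches the surface well without a partner. The alpha E chain of Itgae (CD103) pairs with the beta chain of Itgb7 and binds E-cadherin on epithelium, and TGF-beta and Runx proteins are known to act on Itgae in T cells. The alpha chain of Itga4 pairs with either Itgb7, for MAdCAM-1, or Itgb1, for VCAM-1 and fibronectin. The chains of Itgal and Itgb2 form LFA-1, whose ligands include ICAM-1 and ICAM-2, while Itgav with Itgb3 binds matrix proteins such as vitronectin.

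The labels were checked first. The log2 fold change of Id3, Id3KO over WT, was -4.32 ± 0.16 at stage 1 and -3.83 ± 0.13 at stage 2 (SE, limma's moderated test, adjusted p = 1.83e-05 and 9.02e-06). The labels do not say whether that probe set reads a deleted stretch. Cd3d, Cd3g and the iNKT factor Zbtb16 had group means of 9.85 to 11.80, and Cd44 had means of 8.76 in Id3KO and 9.58 in WT cells at stage 2 against 7.51 and 7.50 at stage 1. Foxp3, Rag1, Ncr1, Ms4a1, Itgam and Pf4, 1 marker each of regulatory T, immature, NK, B and myeloid cells and of platelets, had group means of 5.22 to 5.63, under the log2 level of 5.78 used for testing. Other genes of those lists were bright, among them Ikzf2, Cst3 and Cd1d1, with group means of 8.25 to 9.15. Cd1d1, 1 of 4 tested genes of the immature list, was lower in Id3KO cells at stage 2 (-0.78, limma, adjusted p = 0.0436). That list's summed intensity, which includes Cd1d1, was 641 to 800 in Id3KO against 875 to 960 in WT cells there. Its other tested genes, Cd24a (-0.09), Cd8a (-0.04) and Arpp21 (0.16), were not called. Of the NK cell list 1 of 3 tested genes was called, the receptor gene Klra8, higher in Id3KO cells (3.54 at stage 1 and 2.50 at stage 2). In WT cells Klra8 had 5.28 to 5.47 at stage 1 and 5.38 to 5.83 at stage 2. It thus entered the test only through the Id3KO groups, where it was high, and its call is no support for a change of the list. Fcgr3 (0.62 and 0.19) and Itga2 (0.04 and 0.06) were not called, and Ncr1 and Tyrobp were below the level. The list's summed intensity, which includes Klra8, was 576 to 891 in Id3KO against 233 to 249 in WT cells at stage 1. At stage 2 that sum was 403 to 562 against 239 to 266. The part of these lists in the results below was not tested. These are bulk arrays, so fewer cells of a type and less RNA per cell cannot be told apart in any value below.

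Promoter windows of the RefSeq table, 250 bases before to 50 bases after the gene start, were found for 5 of the 10 genes. Those of Itgb7, Itga4 and Icam1 are shown because a probe set of each gene passed a test between genotypes and because their windows hold the E-box letters CANNTG, which E proteins bind. They are given 5′ to 3′ on the gene's strand in build GRCm38.p6, with the motifs found in capitals.
Itgb7, chr15:102231886-102232185, minus strand: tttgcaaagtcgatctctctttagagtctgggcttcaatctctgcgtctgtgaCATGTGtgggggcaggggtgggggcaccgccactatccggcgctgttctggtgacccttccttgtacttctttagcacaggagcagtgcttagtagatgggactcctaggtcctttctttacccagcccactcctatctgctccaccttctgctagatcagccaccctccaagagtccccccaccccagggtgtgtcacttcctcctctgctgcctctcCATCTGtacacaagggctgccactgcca
Itga4, chr2:79255176-79255475, plus strand: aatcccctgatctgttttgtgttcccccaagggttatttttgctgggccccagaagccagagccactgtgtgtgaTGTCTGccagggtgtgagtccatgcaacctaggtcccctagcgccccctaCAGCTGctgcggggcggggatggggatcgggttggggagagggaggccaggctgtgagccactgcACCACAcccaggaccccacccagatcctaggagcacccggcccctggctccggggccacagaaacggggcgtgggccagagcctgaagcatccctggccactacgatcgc
Icam1, chr9:21015690-21015989, plus strand: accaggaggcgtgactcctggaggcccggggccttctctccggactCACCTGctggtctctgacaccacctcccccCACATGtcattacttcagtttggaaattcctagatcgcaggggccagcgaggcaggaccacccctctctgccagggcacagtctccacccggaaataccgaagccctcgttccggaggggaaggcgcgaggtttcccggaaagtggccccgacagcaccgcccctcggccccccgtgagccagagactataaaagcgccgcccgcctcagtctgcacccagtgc
The Itgb7 window held 2 E-boxes, CATGTG at -197 and CATCTG at 23 bases from the start. The Itga4 window held 1 E-box, CAGCTG at -125, and on the other strand 1 Runx core (TGTGGT, printed as ACCACA) at -60 and 1 Smad element (CAGACA, printed as TGTCTG) at -175. The Icam1 window held 2 E-boxes, CACCTG at -204, which is CAGGTG on the other strand, and CACATG at -174. Both strands were searched, and CAGCTG and CAGGTG are forms of CANNTG. Of 32851 windows of 300 bases in the table, 72.3% held CANNTG, 16.3% CAGCTG, 20.2% CAGGTG, 16.8% TGTGGT and 21% CAGACA. The other windows found, of Itgb1 and Itgav, held 0 E-boxes, so 3 of the 5 held one. The matches are letters in a window and were not tested as binding sites.

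At stage 2 both probe sets of Itgae and those of Itgb7, Itgal and Icam1 were lower in Id3KO than in WT cells, and 1 probe set of Itga4 was higher. At stage 1 only the 2 Itgae probe sets passed the test. A call is an adjusted p under 0.05 in limma's moderated test, adjusted over all 25061 probe sets tested. At stage 2, 6 of 17 member probe sets were called, 1 higher and 5 lower, where 4.21% of all probe sets were called, 1.82% higher and 2.39% lower. At stage 1, 2 of 17 were called, both lower, where 0.802% of all were called, 0.459% higher and 0.343% lower. With genotype averaged over the stages 7 of 17 were called, 2 higher and 5 lower, against 4.97% of all, 2.18% higher and 2.79% lower. The arrays of both genotypes did not overlap for 9 of 17 member probe sets at stage 2 and for 10 of 17 at stage 1, against 21.4% and 41.5% of all probe sets. The median log2 fold change of the 17 was -0.14 at stage 2 and -0.03 at stage 1, against 0.01 and -0.01 over all probe sets. The 10 genes, and the gene lists further below, were chosen with earlier results of these data known. Their counts beside the shares of all are thus a description and no test.

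**Figure D1:**
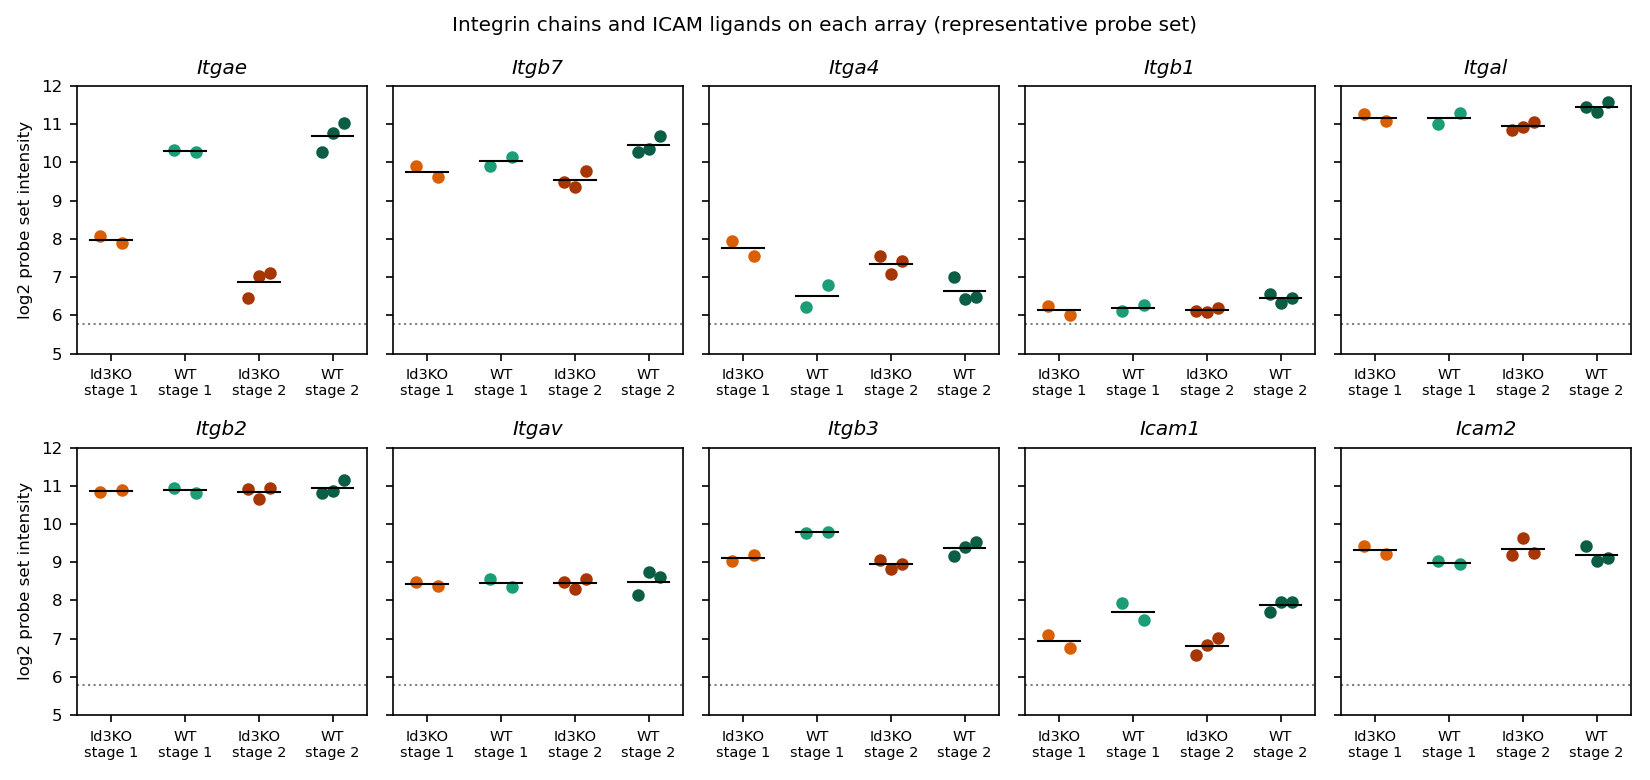
Log2 intensity of the brightest probe set of each of the 10 genes (vertical axis) in the 4 groups (horizontal axis), with 1 point per array, a bar at each group mean and a dotted line at the level of 5.78 used for testing. The Itgae points of both Id3KO groups, from 6.46 to 8.08, lie below all WT points, from 10.27 to 11.03, while those of Itgb2 and Itgav overlap.

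Itgae, the alpha E chain (gene ID 16407), carried the strongest difference among the 10 genes. Its brighter probe set, 1447541_s_at, had log2 intensities of 8.08 and 7.88 in Id3KO stage 1 cells, against 10.32 and 10.27 in WT stage 1 cells. It had 6.46, 7.02 and 7.10 in Id3KO stage 2 cells, against 10.27, 10.77 and 11.03 in WT stage 2 cells. The genotypes did not overlap at either stage, and the Id3KO stage 2 arrays were the lowest of all. The difference was -2.31 ± 0.26 at stage 1, 4.97-fold lower in Id3KO cells, and -3.83 ± 0.21 at stage 2, 14.2-fold lower (SE, limma, adjusted p = 0.0100 and 0.000179). At stage 2 this was the lowest log2 fold change of all 25061 probe sets tested, and at stage 1 it ranked 2 from the bottom.

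The second Itgae probe set, 1449216_at, gave the same order. Its values were 7.35 and 7.11 in Id3KO against 9.27 and 9.40 in WT cells at stage 1, and 6.43, 6.64 and 6.93 in Id3KO against 9.39, 9.85 and 10.18 in WT cells at stage 2. Here the difference was -2.11 ± 0.24 at stage 1 and -3.14 ± 0.20 at stage 2 (SE, limma, adjusted p = 0.0100 and 0.000241). The stage 1 call of the brighter probe set was lost without WT stage 1 replicate 1 (-2.29, adjusted p = 0.0936), WT stage 1 replicate 2 (-2.34, adjusted p = 0.0713) or Id3KO stage 1 replicate 2 (-2.21, adjusted p = 0.0565), and that of the second probe set without the same arrays, where the limma fold change kept its direction. The stage 2 calls were kept in all alternatives run, 21 for the brighter and 19 for the second probe set.

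In Id3KO cells Itgae also had the largest stage difference of the 10 genes. Stage 2 minus stage 1 was -1.12 ± 0.24 in Id3KO cells, whose arrays did not overlap, and 0.40 ± 0.24 in WT cells, whose arrays overlapped (SE, limma, adjusted p = 1.00 and 0.750). Neither passed the test. The genotype difference at stage 2 minus that at stage 1 was -1.51 ± 0.34 (limma, unadjusted p = 0.00160, adjusted p = 0.507), which does not pass after adjustment. In rising order the group means were 6.86 ± 0.35 in Id3KO stage 2, 7.98 ± 0.14 in Id3KO stage 1, 10.29 ± 0.03 in WT stage 1 and 10.69 ± 0.38 in WT stage 2 (SD), and the arrays of the last pair overlapped.

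Itgb7 (gene ID 16421), which encodes the beta partner of the alpha E chain, was lower in Id3KO cells at stage 2. It had 9.50, 9.36 and 9.77 in Id3KO against 10.28, 10.36 and 10.69 in WT stage 2 cells, and 9.91 and 9.61 in Id3KO against 9.91 and 10.14 in WT stage 1 cells. The stage 2 arrays did not overlap, and at stage 1 they met at 9.91. The stage 2 difference was -0.90 ± 0.15, 1.86-fold lower in Id3KO cells (SE, limma, adjusted p = 0.0132), and stayed called in all 21 alternatives. At stage 1 it was -0.26 ± 0.18, with a 95% interval of -0.68 to 0.16 (limma, adjusted p = 0.711). Both chains of the alpha E beta pair were thus lower at stage 2, with log2 fold changes of -3.83 for Itgae and -0.90 for Itgb7. The summed intensity of 11 tested marker genes of the NKT17 subset of iNKT cells moved with both at stage 2. It was 2786 to 3344 in Id3KO against 5403 to 7387 in WT cells there. At stage 1 Itgae was called lower (-2.31) and Itgb7 was not called. The sum there was 2825 to 3001 in Id3KO against 3043 to 3370 in WT cells. Of those 11 genes 8 were called lower at stage 2, among them Ccr6 (-3.38) and Sdc1 (-2.97), against 3.22% of all genes. At stage 1 1 was called lower, Rora (-1.45), against 0.46% of all genes. The part of these 11 genes in the Itgae and Itgb7 differences was not tested.

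The second alpha partner of Itgb7 went the other way. Itga4 (gene ID 16401) had 5 probe sets, of which 4 were tested. The brightest, 1436037_at, had 7.95 and 7.55 in Id3KO against 6.23 and 6.80 in WT cells at stage 1, and 7.54, 7.08 and 7.41 in Id3KO against 6.99, 6.43 and 6.49 in WT cells at stage 2. All 5 Id3KO arrays were above all 5 WT arrays, as were those of 3.1% of all probe sets tested. The difference was 1.23 ± 0.26 at stage 1 and 0.71 ± 0.21 at stage 2, which did not pass (SE, limma, adjusted p = 0.0850 and 0.117), and 0.97 ± 0.17 averaged over the stages, which did (adjusted p = 0.0122).

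Probe set 1456498_at of Itga4 had 7.35 and 7.10 in Id3KO against 6.18 and 6.09 in WT stage 1 cells. At stage 2 it had 7.21, 7.17 and 6.59 in Id3KO against 6.27, 5.95 and 5.58 in WT cells. The genotypes again did not overlap, and 5 of 5 Id3KO arrays were the higher ones. Its difference was 1.06 ± 0.21 at stage 2, 2.08-fold higher in Id3KO cells, and 1.09 ± 0.25 at stage 1 (SE, limma, adjusted p = 0.0261 and 0.117). The stage 2 call was lost without Id3KO stage 2 replicate 1 (0.95, adjusted p = 0.0774) or 2 (0.97, 0.0831), or WT stage 2 replicate 2 (1.07, 0.0795) or 3 (0.88, 0.0824), and in a fit of the stage 2 arrays alone (1.06, 0.0767). The averaged difference of 1.07 ± 0.16 (limma, adjusted p = 0.00661) was kept in all alternatives. The averaged call of 1436037_at was lost without Id3KO stage 1 replicate 1 (0.87, adjusted p = 0.0579) or WT stage 1 replicate 1 (0.83, 0.0535).

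The remaining Itga4 probe sets were dim. Those tested, 1421194_at and 1450155_at, differed by 0.15 and 0.29 at stage 2 and by 0.21 and 0.26 at stage 1, and none was called (limma, adjusted p of 0.208 to 0.738). Probe set 1450155_at was above the level for testing on 3 Id3KO arrays and on 0 WT arrays, so it entered the test only through the Id3KO groups. Probe set 1427615_at was below that level on all arrays.

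Itgb1 (gene ID 16412), the other beta partner of Itga4, was dim, with 2 of 6 probe sets tested. Probe set 1426918_at had 6.24 and 6.02 in Id3KO against 6.10 and 6.27 in WT cells at stage 1, and 6.12, 6.08 and 6.19 in Id3KO against 6.57, 6.31 and 6.44 in WT cells at stage 2. The stage 1 arrays overlapped and the stage 2 arrays did not. The difference was -0.31 ± 0.10 at stage 2, with an interval of -0.53 to -0.09, and -0.05 ± 0.12 at stage 1 (SE, limma, adjusted p = 0.129 and 0.945).

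**Figure D2:**
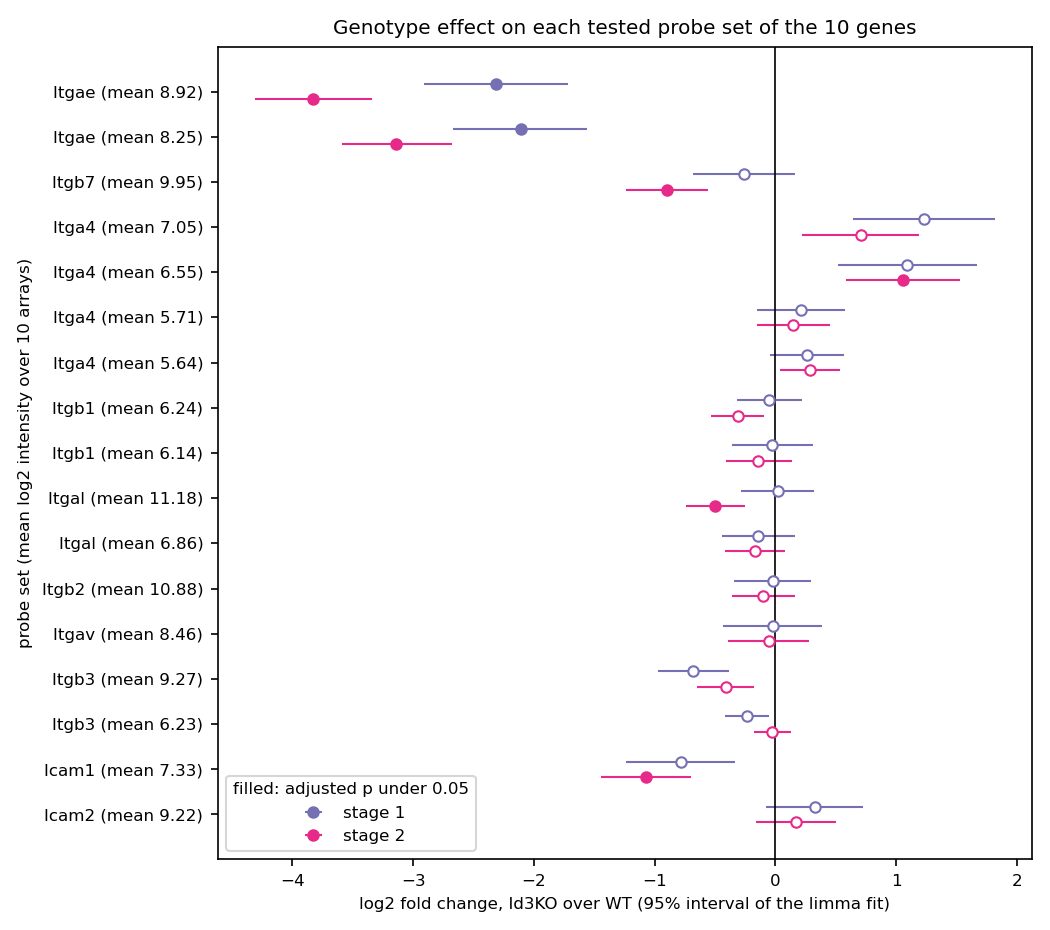
Log2 fold change of Id3KO over WT (horizontal axis) with its 95% interval for each of the 17 tested probe sets (vertical axis, with the mean log2 intensity), at stage 1 and stage 2. Filled points passed the test at an adjusted p under 0.05: both Itgae probe sets at both stages, and Itgb7, 1 Itga4, 1 Itgal and Icam1 at stage 2.

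The LFA-1 chains moved little. Itgal (gene ID 16408), its alpha chain, had 10.85, 10.92 and 11.07 in Id3KO against 11.45, 11.32 and 11.57 in WT stage 2 cells, and 11.26 and 11.09 in Id3KO against 11.01 and 11.29 in WT stage 1 cells. The stage 2 arrays did not overlap and the stage 1 arrays did. The stage 2 difference was -0.50 ± 0.11, 1.41-fold lower in Id3KO cells (SE, limma, adjusted p = 0.0396). It is a marginal call, lost in 11 of 21 alternatives with adjusted p up to 0.140, among them leaving out any of 7 arrays: WT stage 2 replicate 1 (-0.49, adjusted p = 0.0973), 2 (-0.56, 0.0600) or 3 (-0.43, 0.140), Id3KO stage 2 replicate 1 (-0.45, 0.110) or 2 (-0.48, 0.107), and Id3KO stage 1 replicate 1 (0.0547) or 2 (0.0547). With the replicate block its adjusted p was 0.0605. The stage 1 difference was 0.02 ± 0.13. The dimmer Itgal probe set, 1425367_at, differed by -0.17 at stage 2 and by -0.14 at stage 1 and was not called (limma, adjusted p = 0.510 and 0.811).

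Itgb2 (gene ID 16414), the beta chain of LFA-1, showed no difference beyond its spread. It had 10.92, 10.64 and 10.93 in Id3KO against 10.80, 10.87 and 11.14 in WT stage 2 cells, and 10.84 and 10.88 in Id3KO against 10.94 and 10.82 in WT stage 1 cells. The groups overlapped at both stages. The 95% interval of the difference was -0.36 to 0.16 at stage 2 and -0.34 to 0.30 at stage 1.

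Icam1 (gene ID 15894), the ligand of LFA-1 that activated lymphocytes also carry, was lower in Id3KO cells. It had 6.57, 6.83 and 7.01 in Id3KO against 7.70, 7.95 and 7.96 in WT cells at stage 2, and 7.10 and 6.75 in Id3KO against 7.93 and 7.48 in WT cells at stage 1. All Id3KO arrays were below all WT arrays, as were those of 3.75% of all probe sets tested. The difference was -1.07 ± 0.16 at stage 2, 2.10-fold lower, and -0.78 ± 0.20 at stage 1 (SE, limma, adjusted p = 0.00883 and 0.161). Averaged over the stages it was -0.93 ± 0.13 (adjusted p = 0.00447). The stage 2 call was kept in all 21 alternatives, with adjusted p up to 0.0431. The NKT17 sums given with Itgb7 moved with Icam1 at stage 2 as well, and their part in it was not tested.

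Icam2 (gene ID 15896), the ligand of LFA-1 on resting cells, went the other way in sign without passing the test. It had 9.19, 9.64 and 9.24 in Id3KO against 9.43, 9.02 and 9.11 in WT stage 2 cells, and 9.42 and 9.21 in Id3KO against 9.03 and 8.94 in WT stage 1 cells. The arrays overlapped at stage 2 and not at stage 1. The difference was 0.17 ± 0.15 at stage 2 and 0.33 ± 0.18 at stage 1 (SE, limma, adjusted p = 0.654 and 0.606), with intervals of -0.16 to 0.50 and -0.08 to 0.73.

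Of the matrix receptor, the beta chain passed the averaged test and the alpha chain did not. Itgb3 (gene ID 16416) had 9.02 and 9.19 in Id3KO against 9.77 and 9.80 in WT cells at stage 1, and 9.06, 8.83 and 8.95 in Id3KO against 9.17, 9.40 and 9.52 in WT cells at stage 2. The genotypes did not overlap within a stage. The difference was -0.68 ± 0.13 at stage 1 and -0.41 ± 0.10 at stage 2, neither called (SE, limma, adjusted p = 0.0600 and 0.0660), and -0.55 ± 0.08 averaged over the stages, which was (adjusted p = 0.00646, up to 0.0345 in the alternatives). Without WT stage 2 replicate 1 both stage differences were called (-0.68, adjusted p = 0.0429, and -0.51, adjusted p = 0.0360). Array weights (limma, adjusted p = 0.0372 and 0.0337) and 1 probe set per gene (0.0379 and 0.0438) also called both, and the mean of its probe sets called stage 1 (-0.46, adjusted p = 0.0366). Its dim probe set, 1421511_at, differed by -0.23 at stage 1 and -0.03 at stage 2 and was not called (adjusted p = 0.350 and 0.903).

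Itgav (gene ID 16410), the alpha chain of that pair, had 1 of 5 probe sets tested. It had 8.49 and 8.38 in Id3KO against 8.56 and 8.34 in WT cells at stage 1, and 8.47, 8.31 and 8.55 in Id3KO against 8.15, 8.73 and 8.60 in WT cells at stage 2. The genotypes overlapped at both stages. The interval of the difference was -0.43 to 0.39 at stage 1 and -0.39 to 0.28 at stage 2. Of 10 annotated markers of platelets, which carry Itgb3, 5 were below the level on all arrays, including Pf4 and Ppbp. Treml1 (6.44 to 6.57) and Itga2b (6.15 to 6.56) were above it on all arrays, and 0 of 5 tested markers were called. The summed intensity of the 10 was 531 to 552 in Id3KO against 542 to 555 in WT cells at stage 1. At stage 2 that sum was 539 to 555 against 540 to 575. The part of these markers in the Itgb3 difference was not tested.

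Set beside each other, the partner chains did not move by equal amounts. Itgae and Itgb7 differed by -2.31 and -0.26 at stage 1 and by -3.83 and -0.90 at stage 2. Itga4 and Itgb7 differed by 1.23 and -0.26 at stage 1 and by 0.71 and -0.90 at stage 2, with opposite signs at both. The chains of Itga4 and Itgb1 differed by 1.23 and -0.05, then by 0.71 and -0.31, and those of Itgav and Itgb3 by -0.02 and -0.68, then by -0.05 and -0.41. For Itgal and Itgb2 the values were 0.02 and -0.02 at stage 1 and -0.50 and -0.10 at stage 2. These are log2 fold changes of Id3KO over WT for the brightest probe sets, given as a description. Over the 10 arrays, which share the 4 groups, Pearson's r was 0.89 between Itgae and Itgb7, -0.57 between Itga4 and Itgb7 and 0.37 between Itgal and Itgb2.

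**Figure D3:**
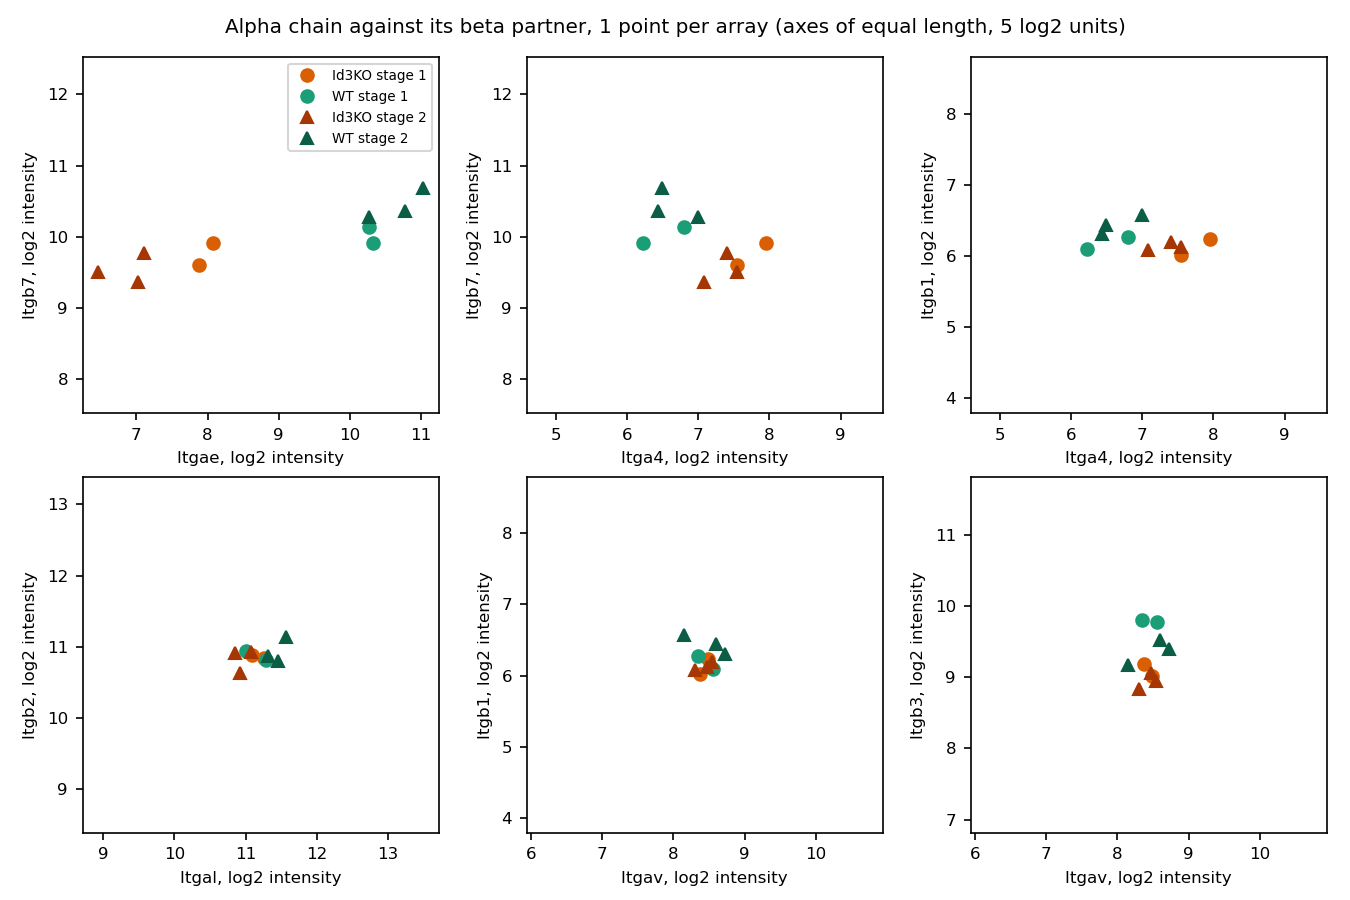
Log2 intensity of an alpha chain (horizontal axis) against that of a beta partner (vertical axis) for 6 pairs, with 1 point per array, circles for stage 1 and triangles for stage 2. In the Itgae panel the Id3KO arrays lie far to the left of the WT arrays with a smaller drop in Itgb7, and in the Itga4 panels they lie to the right.

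Between the stages none of the 17 member probe sets passed the test. In all, limma called 0 of the 25061 probe sets (0%) in Id3KO cells and 4 (0.016%) in WT cells, and at an unadjusted p under 0.05 it gave 2 of 17 member probe sets in Id3KO and 4 of 17 in WT cells, against 1131 and 2019 of all. Those in WT cells were Itgb7 (0.42 ± 0.17), Itgal (0.30 ± 0.12) and Itgb1 (0.26 ± 0.11), higher at stage 2, and Itgb3 (-0.42 ± 0.12), lower at stage 2, with limma's adjusted p of 0.392 to 0.600. Those in Id3KO cells were both Itgae probe sets. The arrays of the stages did not overlap for 4 of 17 member probe sets in Id3KO and 6 of 17 in WT cells, against 18.4% and 26.2% of all probe sets. The interaction of genotype and stage gave 0 calls among all probe sets in limma, with 1772 at an unadjusted p under 0.05, 4 of them member probe sets: both of Itgae, that of Itgb7 (-0.64 ± 0.24) and the brighter one of Itgal (-0.52 ± 0.17).

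Of 19 listed chains 9 were tested, and at stage 2 1 was called, Itga7, a laminin receptor chain. It was 0.66 ± 0.08 higher in Id3KO cells, with means of 6.44 in Id3KO and 5.78 in WT cells (limma, adjusted p = 0.00259). Itga7 was dim: its WT stage 2 arrays, 5.71 to 5.88, lay around the level of 5.78 for testing, against 6.37 to 6.54 in Id3KO stage 2. At stage 1 0 of the 9 were called. The laminin receptor chain Itga6 was called only with the stages averaged, 0.59 higher (limma, adjusted p = 0.0348, up to 0.128 without 1 array), as 2.88% of all genes were called higher. Among all genes, each by its brightest probe set, 5.58% were called at stage 2 (2.36% higher, 3.22% lower) and 1.05% at stage 1 (0.594% higher, 0.46% lower). Of the listed ligands 11 were tested, and Thy1, a T cell surface protein that binds Itgav with Itgb3, was lower at stage 2 (-1.39, means of 10.15 in Id3KO and 11.54 in WT cells, limma, adjusted p = 0.00385). Cdh1, which encodes E-cadherin, differed by -0.69 at stage 2 and -0.61 at stage 1 and was not called (adjusted p = 0.214 and 0.575).

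Genes that switch integrins on or tie them to actin mostly did not pass the test. At stage 2, 5 of 44 were lower in Id3KO cells, against 3.22% of all genes, and 0 higher. At stage 1, 0 of the 44 were called. Their median was -0.14 at stage 2 against 0.01 over all genes. The 5 were Cyth1 (-0.75), which binds the LFA-1 beta chain, Fyb (-0.73), the adaptor ADAP, Vcl (-0.87), vinculin, Zyx (-0.64), zyxin, and Dock2 (-0.57), a Rac activator. Of these calls Cyth1 alone was kept without each of the 10 arrays in turn. A second Fyb probe set was also lower (-0.86, limma, adjusted p = 0.00188), while those of Zyx (-0.25) and Dock2 (-0.31 and -0.27) were not called (adjusted p = 0.160, 0.223 and 0.676). Fermt3, the blood cell kindlin, differed by -0.05, Rap1a by 0.12 and Tln1, talin, by -0.22 at stage 2 (limma, adjusted p = 0.856, 0.614 and 0.223).

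Of the TGF-beta and Runx genes linked to Itgae, 4 of 15 were lower in Id3KO cells at stage 2 and 1 at stage 1, with 0 higher. Among all genes 3.22% were called lower at stage 2 and 0.46% at stage 1. The medians of the 15 were -0.49 at stage 2 and -0.29 at stage 1 against 0.01 and -0.02 over all genes. Runx3, a known activator of Itgae in T cells, was lower at both stages, with log2 fold changes of -1.30 at stage 1 and -2.09 at stage 2 and means of 6.62 in Id3KO and 8.71 in WT cells at stage 2 (limma, adjusted p = 0.0100 and 0.000179). Its stage 1 call was lost without WT stage 1 replicate 1 or 2, where its adjusted p reached 0.0936, and in a fit of the stage 1 arrays alone. A second, dimmer Runx3 probe set was not called (-0.14 at stage 1 and -0.08 at stage 2). Skil (-1.08) and Ski (-0.76), brakes on Smad proteins, and the receptor chain Tgfbr1 (-0.61) made up the stage 2 calls, and of the 4, Runx3 and Ski were kept without each array in turn. At stage 2 second probe sets were lower for Ski (-0.66) and for Smad7 (-0.92), whose brighter one was not called there (-0.53), and not called for Skil (-0.31) (limma, adjusted p = 0.0283, 0.00594, 0.0781 and 0.240). Tgfbr2 differed by 0.09 and Smad4 by -0.05 at stage 2 (limma, adjusted p = 0.825 and 0.943). With the stages averaged 6 of the 15 were lower, against 3.84% of all genes. Those called only there were Tgfbr3 (-1.0), Smad7 (-0.5) and Smad3 (-0.41) by their brightest probe sets (limma, adjusted p = 0.0449, 0.0375 and 0.0499). Each of these calls was lost in some fits without 1 array.

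Of the NF-kB and interferon genes linked to Icam1, 8 of 16 were lower in Id3KO cells at stage 2, against 3.22% of all genes, and 0 higher. The median of the 16 was -0.60 against 0.01 over all genes, and 0 were called at stage 1. The 8 were the NF-kB partner Bcl3 (-1.21), the TNF receptors Tnfrsf1b (-1.03) and Tnfrsf1a (-0.83), the chains Ifngr2 (-0.76) and Ifngr1 (-0.72) of the interferon gamma receptor, Ifng itself (-0.69), the inhibitor Tnfaip3 (-0.62) and the factor Irf1 (-0.58). All but Ifngr1 and Irf1 were kept without each array in turn. Ifng was above the level for testing in WT stage 2 cells only (6.03 to 6.29, against at most 5.59 in Id3KO stage 2, 5.69 in Id3KO stage 1 and 5.76 in WT stage 1), so it entered the test only through the group where it was high and its call is no support for the count. The second, dimmer probe sets of Tnfrsf1b (0.03) and Ifngr2 (-0.08) were not called at stage 2 (limma, adjusted p = 0.918 and 0.715). Rela, a subunit of NF-kB, differed by -0.11 (limma, adjusted p = 0.530). With the stages averaged 8 of the 16 were lower, Ifng among them, against 3.84% of all genes. Nfkbie was called only there (-0.69, limma, adjusted p = 0.0447), a call lost in some fits without 1 array. The NKT17 sums moved with both of these lists at stage 2. A sum of 9 T cell markers was lower there too, 10590 to 12400 in Id3KO against 13250 to 14470 in WT cells. That sum includes Thy1, the 1 called marker, with means of 10.15 in Id3KO and 11.54 in WT cells. Of the uncalled ones, Cd3d (0.09) and Cd5 (0.34) were higher in sign and Cd44 (-0.82) and Cd247 (-0.42) lower. At stage 1 the sum was 11890 to 12570 in Id3KO against 13220 to 13750 in WT cells. The part of the NKT17 and T cell markers in these lists was not tested.

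**Figure D4:**
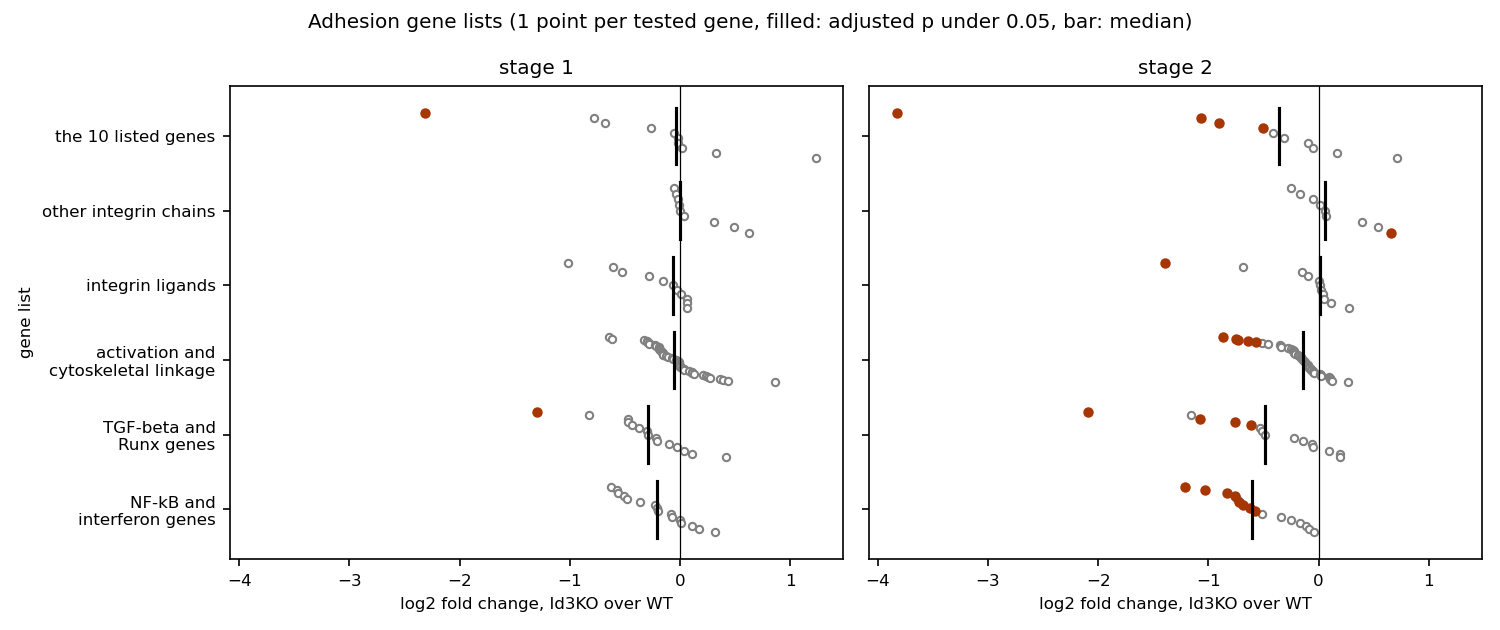
Log2 fold change of Id3KO over WT (horizontal axis) at stage 1 (left) and stage 2 (right) for each tested gene of 6 gene lists (vertical axis), filled where the adjusted p was under 0.05, with a bar at each median. At stage 2 the called genes lie below 0 except Itga7, and the NF-kB and interferon list has a median of -0.60.

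The genes whose values followed a member most closely over the 10 arrays were named for the 4 members whose brightest probe set was called at stage 1 or stage 2, from 11406 genes compared. For Itgae they were Lgals3 (Pearson's r = 0.980), Wls (0.975), Prkcb (0.974), Gbp6 (0.974) and Ifi47 (0.972). Wls was below the level for testing on all Id3KO arrays (5.23 to 5.45, against 6.06 to 6.26 in WT cells). It was thus kept only through the WT groups, where it was higher. Lgals3, galectin-3, had means of 10.52 in Id3KO and 12.25 in WT cells at stage 1 and of 9.46 and 12.07 at stage 2, so that Id3KO stage 2 was again the lowest group. For Itgb7 they were Ahnak, Selplg, Ltb, Fnbp1 and Esyt1 (r of 0.971 to 0.977), for Itgal Ltb, Chd3, Mast3, Selplg and H2-K1 (0.950 to 0.966), and for Icam1 Lpar6, Etv6, Lpxn, Il12rb1 and Ifi47 (0.964 to 0.981). Selplg, which encodes the selectin ligand PSGL-1, and Ltb, lymphotoxin beta, stood on the lists of both Itgb7 and Itgal. The arrays share the 4 groups, so a high r describes a like order of groups and carries no test.

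**Figure D5:**
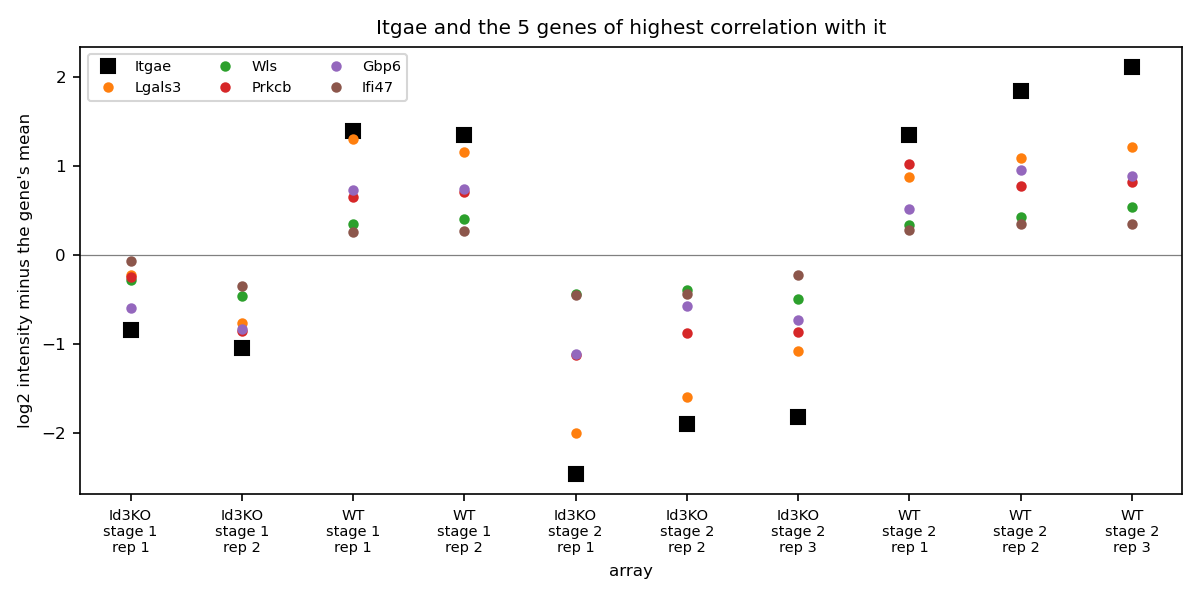
Log2 intensity minus the gene's mean (vertical axis) on each of the 10 arrays (horizontal axis) for Itgae and the 5 genes of highest correlation with it. Each of the 6 genes lies below its mean on the 5 Id3KO arrays and above it on the 5 WT arrays, with the widest range for Itgae. On the Id3KO arrays Wls was below the level for testing.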

How the data were processed

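Sorted thymic iNKT cells were profiled on Affymetrix arrays after 2-cycle labelling, per the labels' protocols. The authors' deposited intensities are linear (29 to 15399) and were made with RMA, per the submitters' processing notes; its version and settings and the genome build are unstated. The arrays' medians ran from 54.8 to 55.5. Log2 was taken here, although the plan assumed log2 values.

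A probe set was tested if it exceeded log2 5.78, the table's median, on 2 or more arrays (25061 of 45037). The fit used limma 3.58.1 (R 4.3.3) with 4 group means over the 10 arrays (residual df 6, prior df 2.80). Tests were two-sided and adjusted by Benjamini-Hochberg over all tested probe sets of each contrast, and the fit was tested on simulated data. P-values measure the spread between arrays that the labels call biological replicates. The brightest tested probe set represents a gene. Named were all 10 genes; of each other list, the called genes and otherwise up to 4 of the highest mean; and for members whose representative was called in a comparison of 2 groups, the 5 genes of highest Pearson correlation. Cdh1, Rela, Tgfbr2, Smad4 and Tln1 were named for their role, and Smad7 for its second probe set, after their values were seen. The members and lists were chosen with earlier results of these data known. Same-numbered arrays did not deviate together (correlations of -0.311 to 0.133), and differently numbered ones gave -0.187 to 0.311. The highest was between WT stage 2 replicate 1 and Id3KO stage 1 replicate 2. In a group of 2 arrays the deviations mirror each other, so these values are not independent. Sequences are RefSeq's, and protein sequences were not used here.

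Alternatives were no filter or one at log2 6.5, quantile normalization, median centring, a trended robust prior, weighted arrays, a fit of the compared arrays alone, the replicate block (also with the Id3KO stage 1 numbers crossed, chosen after seeing the data), 1 probe set per gene, the mean of a gene's probe sets, and each array left out.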

Additional observations from a re-analysis of the deposited data

How the results depend on the processing

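Leaving out 1 array at a time, limma called 0 to 3 of the member probe sets between genotypes at stage 1, 4 to 6 at stage 2 and 5 to 7 with the stages averaged; the 0 at stage 1 came without WT stage 1 replicate 1, WT stage 1 replicate 2 or Id3KO stage 1 replicate 2, where both Itgae probe sets missed the threshold. The other settings gave 2 to 3, 4 to 8 and 5 to 7. Between stages and in the interaction every setting gave 0. Over 72 results of single probe sets and 21 alternatives no called value changed sign; 15 results were called, and 9 of them were called in every alternative, among them Itgae, Itgb7 and Icam1 at stage 2. Itgb7 averaged over the stages missed the threshold without each of 7 arrays in turn (adjusted p of 0.0513 to 0.112). Itga4 (1436037_at) at stage 2 was called with array weights (0.85, adjusted p = 0.0441) and as the mean of its probe sets (0.55, 0.0263). With the replicate block, limma called 3 member probe sets at stage 1, 5 at stage 2 and 7 averaged: Itga4 (1456498_at) at stage 1 was gained (adjusted p = 0.0181) and Itgal at stage 2 lost (0.0605). With the Id3KO stage 1 numbers crossed it called 3, 6 and 7. The causes were not tested. Dim probe sets of Itga4, Itgb1 and Itgav near the level for testing limit what can be said of them.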
